A study of Mus musculus with 26 samples.

Results

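Described here are 10 mouse genes that set whether a cell passes from G1 into S phase: the CIP/KIP inhibitors of cyclin-dependent kinases (CDKs) Cdkn1a, Cdkn1b and Cdkn1c, the INK4 locus genes Cdkn2a and Cdkn2b, the retinoblastoma gene Rb1, the D-type cyclins Ccnd1, Ccnd2 and Ccnd3, and the E-type cyclin Ccne1. They were chosen by name, with earlier results of these data known. They are 10 of the 57186 genes with a symbol in the count table that holds all Fgf9 deletions. All 10 passed the filter on low counts there, which kept 22941 genes, and all 10 passed it in the separate Meis1 table, which kept 16791.

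The libraries are poly(A) RNA-seq of whole XY gonads at stage E13.5 of embryonic life, freed from the mesonephros. There were 6 groups: wild type (WT, n = 3), gonads with 1 of 4 deletions labelled Fgf9 Δ306 (n = 3), Δ225 (n = 6), Δ104 (n = 4) and Δ93 (n = 6), and a Meis1 knockout (Meis1 KO, n = 4). Fgf9 encodes a secreted growth factor that supports testis differentiation, and Meis1 a homeobox transcription factor. The labels used here name a deletion or a knockout and do not give its boundaries, zygosity, strain, litter or pooling. Replicates of Δ225, Δ104, Δ93 and Meis1 KO are labelled biological, while those of WT and Δ306 carry a number only, so their p-values measure the spread between samples that may be partly technical. WT and Δ306 also carry a separate run of sample numbers and other processing notes. Where either is set against Δ225, Δ104, Δ93 or Meis1 KO, genotype and such a difference cannot be told apart.

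In the textbook scheme, D-type cyclins with CDK4 or CDK6, and then cyclin E with CDK2, phosphorylate the retinoblastoma protein, which releases E2F factors and lets S phase begin. INK4 proteins block CDK4 and CDK6, and CIP/KIP proteins block CDK2 complexes. At this stage germ cells of an XY gonad leave the cell cycle in G1, while germ cells of an XX gonad enter meiosis; Sertoli cells go on dividing, and pre-granulosa cells, their XX counterparts, stop dividing and contain the CDKN1B protein.

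Several libraries stood apart before any comparison. Depth ran from 11582619 to 53392393 counts in the table of all deletions and from 35468633 to 51732897 counts in the Meis1 table. Although all samples are labelled XY, 4 Y-linked genes (Ddx3y, Eif2s3y, Kdm5d, Uty) summed to under 0.1 of the WT median of 31.6 CPM (a gene's counts scaled to a common library size) in 7 libraries: Δ306 replicate 3, Δ225 replicate 4, Δ104 replicate 3 and Δ93 replicates 3, 4, 5 and 6. The sum reached at most 11.7 CPM in Δ306, 20.5 CPM in Δ225 and 6.601 CPM in Δ93, all below the lowest WT library (31.2 CPM). It ran from 1.92 to 36.2 CPM in Δ104. It was only 0.14 CPM in Δ306 replicate 3, 0.20 CPM in Δ225 replicate 4, 0.027 CPM in Δ93 replicate 4 and 0.20 CPM in Δ93 replicate 5. Whether the label XY holds for these libraries was not tested. All 4 genes were called lower in Δ93 than in WT. The sum was also lower in Meis1 KO (3.67 to 15.8 CPM) than in WT of the same table (33.3 to 81.6 CPM). Germ-cell markers (8 genes, median sum 880 CPM) came to only 55.2 CPM in WT replicate 1 and 213 CPM in Δ104 replicate 3. Mitochondrial genes took 11.6% of counts in Δ225 replicate 1, the shallowest library, against a median of 2.85%, and 5 muscle genes summed to 1623 CPM in Δ225 replicate 3, against a median of 15.9 CPM. Fgf9 itself had 9.21 to 9.85 CPM in WT, 2.17 to 2.94 CPM in Δ306, 2.30 to 4.75 CPM in Δ93, 2.72 to 6.98 CPM in Δ104 and 3.69 to 16.5 CPM in Δ225. It was 1.94 lower on the log2 scale in Δ306 than in WT (adjusted p = 0.0148 by edgeR) and 1.63 lower in Δ93 (adjusted p = 0.00532), and neither Δ104 (adjusted p = 0.259) nor Δ225 (adjusted p = 0.535) passed the test. Meis1 was 7.49 lower in Meis1 KO on the same scale (adjusted p = 0.000179).

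Promoter sequence was at hand for 6 of the 10 genes, as 9 windows of the 250 bases before a start site (RefSeq, GRCm38.p6, the build mm10 of the counts). Those of Cdkn1a, Cdkn1b and Ccne1 are printed, without exonic bases, because these genes were among the members called in the comparisons below and their levels varied together over the 22 libraries. Pearson r of their log2 CPM ran from 0.646 (Cdkn1b with Ccne1) to 0.862 (Cdkn1a with Ccne1). The first window of Cdkn1a is not printed and holds no GC box and no E2F or forkhead match. Capitals mark the GC box, GGGCGG on either strand. The last capitals of the Ccne1 stretch are a GC box that runs past its end.
Cdkn1a, second of 2 windows, chr17:29093519-29093768, plus strand: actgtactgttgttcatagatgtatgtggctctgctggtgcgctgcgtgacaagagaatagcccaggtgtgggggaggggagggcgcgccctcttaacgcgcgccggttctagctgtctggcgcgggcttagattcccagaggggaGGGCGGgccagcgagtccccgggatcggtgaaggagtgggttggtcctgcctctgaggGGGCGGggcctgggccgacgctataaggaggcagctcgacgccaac
Cdkn1b, chr6:134920151-134920400, plus strand: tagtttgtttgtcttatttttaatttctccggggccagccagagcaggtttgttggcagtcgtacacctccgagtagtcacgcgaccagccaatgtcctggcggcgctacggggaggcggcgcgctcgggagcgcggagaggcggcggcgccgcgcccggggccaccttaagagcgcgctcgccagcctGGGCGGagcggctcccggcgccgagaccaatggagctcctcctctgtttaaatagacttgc
Ccne1, chr7:38107535-38107740, minus strand: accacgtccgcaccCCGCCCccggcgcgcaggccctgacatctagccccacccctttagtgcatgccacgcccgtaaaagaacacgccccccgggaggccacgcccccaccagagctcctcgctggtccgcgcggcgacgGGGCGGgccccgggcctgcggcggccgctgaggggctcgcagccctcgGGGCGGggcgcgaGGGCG

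A GC box lay in 6 of the 9 windows, against 32.7% of 32851 promoter windows of the same length outside chromosome 18. The 4 heptamers searched for the E2F site (TTCCCGC, then TTCGCGC, then TTGCCGC, then TTGGCGC, both strands) matched 1 window, the first of Cdkn2a, against 7.89% of the same 32851 windows. A forkhead heptamer (TGTTTAC, both strands) matched 1 window, the first of Ccnd3, against 3.17%. None of the printed stretches holds an E2F or forkhead heptamer of these letters. No match of one motif overlapped a match of another, and a match is a run of letters, not a bound site.

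Across the 11 comparisons, 12 of the 110 pairs of a gene and a comparison passed the test, and 5 genes accounted for them: Cdkn1a, Cdkn1b, Cdkn1c, Ccnd1 and Ccne1. A gene is called where the p-value of edgeR's quasi-likelihood test, adjusted over all genes of the table, was under 0.05. Against WT, 2 of 10 were called in Δ306 (Cdkn1b and Cdkn1c, both higher), where 6.43% of all genes were called, and 3 of 10 in Δ93 (Cdkn1a, Cdkn1b and Cdkn1c, all higher), where 14.1% were. In Δ225 against Δ306, 3 were called lower (Cdkn1b, Ccnd1 and Ccne1; 13.2% of all genes called), and in Δ225 against Δ93, 4 were called lower (the same 3 genes and Cdkn1a; 20.8% of all genes). The 4 deletion groups share 3 WT libraries and the Δ225 comparisons share 6 Δ225 libraries, so these counts are not independent of each other. Meis1 KO was set against the same 3 WT libraries, counted in its own table.

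The other 7 comparisons held no called member. In Δ225 against WT, 0.209% of all genes were called; edgeR gave 3 members an unadjusted p under 0.05 and DESeq2 called 1. In Δ104 against WT (0.0610% of all genes), these numbers were 3 and 0. They were 4 and 0 in Δ225 against Δ104 (0.645%), 1 and 0 in Δ104 against Δ306 (0.0654%), 0 and 0 in Δ93 against Δ306 (0.0785%), and 1 and 0 in Δ93 against Δ104 (0.0523%). In Meis1 KO against WT (1.80%), 4 members had an unadjusted p under 0.05 with edgeR, and DESeq2 called 3.

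**Figure D1:**
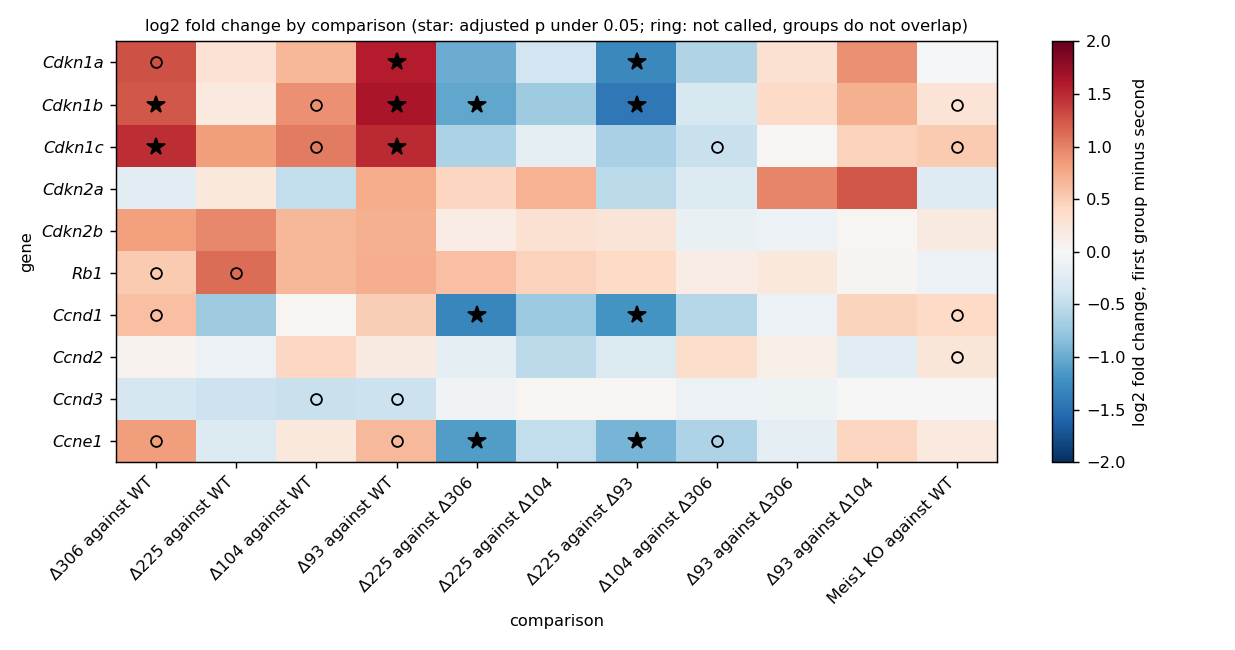
Each cell gives the log2 fold change of a gene (rows) in a comparison (columns), first group minus second, from red (higher) to blue (lower); a star marks an adjusted p under 0.05 and a ring a gene that was not called although the groups' libraries do not overlap. The 12 stars lie in 4 comparisons, higher in Δ306 and Δ93 against WT and lower in Δ225 against Δ306 and Δ93.

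The 3 CIP/KIP genes were the members with calls against WT, with called differences of 2.37 to 3.08 times in Δ306 or Δ93. Cdkn1a (chr17:29090976-29100727, plus strand in GRCm38) encodes p21, an inhibitor of CDK2 complexes and a classical p53 target. Cdkn1b (chr6:134920401-134925513, plus strand) encodes p27, which holds cells in a resting state. Cdkn1c (chr7:143458339-143461050, minus strand) encodes p57, an imprinted inhibitor of embryonic tissues.

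Cdkn1b stood at 59.2, 60.6 and 62.1 CPM in the 3 WT libraries and at 116, 135 and 180 CPM in the 3 Δ306 libraries. In Δ93 it ran from 132 to 270 CPM (median 182), and in Δ225 from 58.9 to 85.4 CPM (median 68.0). The 270 CPM, highest of the 22 libraries, was Δ93 replicate 5, which is among the libraries with low Y-linked counts. The 4 Δ104 libraries spread over 63.5, 83.0, 120 and 191 CPM. All Δ306, Δ93 and Δ104 libraries thus lay above all WT libraries, and Δ225 overlapped WT. Cdkn1b rose by 1.24 (SE 0.31) on the log2 scale in Δ306 against WT (adjusted p = 0.0219, higher in 3 of 3 libraries) and by 1.62 (SE 0.29) in Δ93 against WT (adjusted p = 0.00147, 6 of 6). In Δ104 the difference from WT was 0.92 (SE 0.29, adjusted p = 0.173), and in Δ225 it was 0.20 (SE 0.27, adjusted p = 0.711). Directly compared, Cdkn1b was 1.04 (SE 0.26) lower in Δ225 than in Δ306 (adjusted p = 0.0118) and 1.42 (SE 0.22) lower than in Δ93 (adjusted p = 0.000173), with no overlap of libraries in either case. In these bulk libraries more cells of a type that holds the transcript and more transcript per cell cannot be told apart.

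The Δ93 increase in Cdkn1b was called with any 1 library left out (adjusted p from 0.00129 to 0.0143), and without the 7 libraries of low Y-linked counts it was 1.49 with an adjusted p of 0.0563. The Δ306 increase was 1.01 (adjusted p = 0.202) without those 7 libraries and 1.25 (adjusted p = 0.0675) without the 2 libraries poor in germ cells, and its adjusted p was 0.0777 to 0.152 without WT replicate 1, 2 or 3 or Δ306 replicate 2 or 3. The lower level in Δ225 than in Δ93 was called without the 7 low-Y libraries as well (1.32 lower, adjusted p = 0.0383), whereas that in Δ225 against Δ306 was not (0.84 lower, adjusted p = 0.184), nor without Δ306 replicate 3 (0.82 lower, adjusted p = 0.131). The comparisons with Δ104 turned on single Δ104 libraries in both directions. Δ104 against WT, 0.92 with all libraries (adjusted p = 0.173), was 1.12 without replicate 4, the lowest of its group (adjusted p = 0.0359), and 0.56 without replicate 1, the highest (adjusted p = 0.504). The level in Δ225 was 0.71 lower than in Δ104 with all libraries (adjusted p = 0.221), 0.91 lower without replicate 4 (adjusted p = 0.0350) and 0.35 lower without replicate 1 (adjusted p = 0.98). Δ93 against Δ104, 0.71 with all libraries (adjusted p = 0.211), was 1.102 without replicate 1 (adjusted p = 0.0124) and 0.51 without replicate 4 (adjusted p = 0.315).

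Most pre-granulosa markers were, like Cdkn1b, higher in Δ306 and Δ93 than in WT. Of 12 genes listed as such markers, 8 were called higher in Δ306 than in WT and 11 in Δ93, and 1 (Nr2f2) was called lower in Δ93. Their summed level was 386 to 499 CPM in WT, 729 to 1100 CPM in Δ306, 758 to 1510 CPM in Δ93, 417 to 1148 CPM in Δ104 and 422 to 652 CPM in Δ225. Of the 12, Irx5 alone had a library without a count, in Δ225. Foxl2, the transcription factor that marks pre-granulosa cells, stood at 0.63 to 0.83 CPM in WT, 36.5 to 85.7 CPM in Δ306, 42.5 to 141 CPM in Δ93 and 0.34 to 7.19 CPM in Δ225. In the 4 Δ104 libraries, Foxl2 at 1.22, 13.02, 40.5 and 77.0 CPM ranked the libraries in the same order as Cdkn1b did. This also held for the 3 Δ306 libraries, and not for WT, Δ225 or Δ93. Summed Sertoli markers were lower (14 genes, 2887 to 3297 CPM in WT, 741 to 1269 CPM in Δ306, 713 to 1808 CPM in Δ93). Of these, 2 were called lower and 1 (Nr0b1) higher in Δ306, and 3 lower and 2 (Nr0b1 and Wt1) higher in Δ93. Sox9, which is on this list, was not called against WT in any deletion. Its adjusted p by edgeR was 0.327 in Δ306, 0.967 in Δ225, 0.69 in Δ104 and 0.0742 in Δ93. Fetal Leydig markers (6 genes) summed to 930 to 1603 CPM in WT, 43.0 to 95.3 CPM in Δ306 and 55.6 to 324 CPM in Δ93, with 4 and 5 of 6 called lower, and to 469 to 3113 CPM in Δ225, with 0 of 6 called. Of 6 endothelial genes 1 was called lower in Δ306 and 2 in Δ93, of 7 mesonephric genes 1 was called higher and 1 lower in Δ93, and no macrophage or red blood cell gene was called against WT in either. The part of cell make-up in the CIP/KIP values was not tested.

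**Figure D2:**
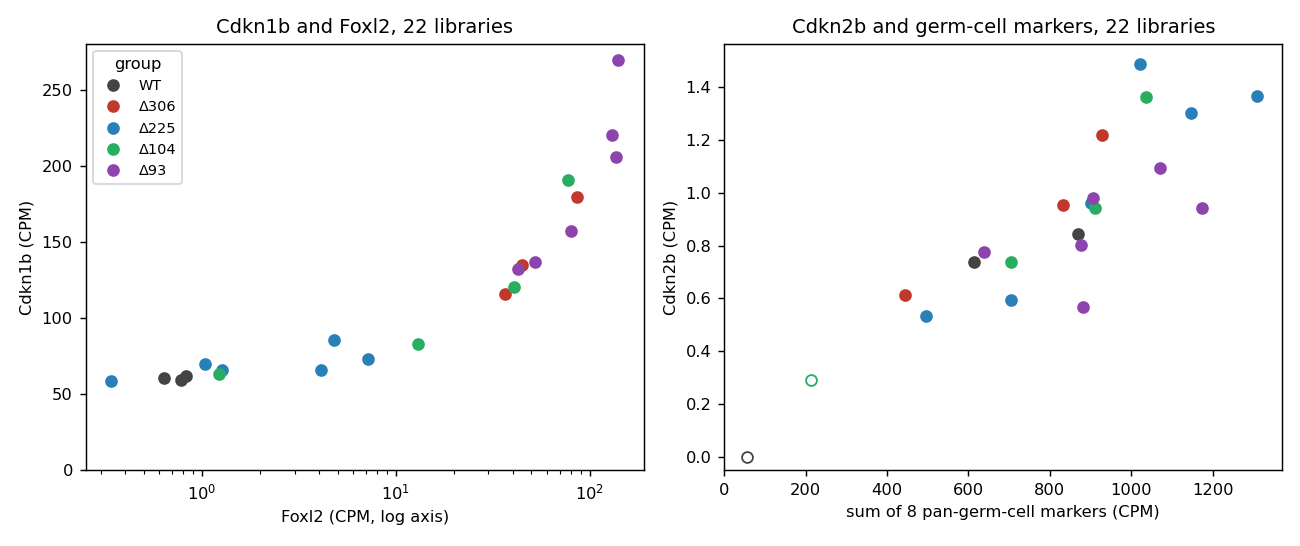
Left, Cdkn1b against Foxl2 (CPM; log axis for Foxl2) and right, Cdkn2b against the summed CPM of 8 germ-cell markers, 1 point per library of the table of all deletions (22 points, coloured by group; open circles on the right are WT replicate 1 and Δ104 replicate 3). The WT libraries sit at the lower left of the first panel and Δ93 libraries, at 132 to 270 CPM of Cdkn1b, toward its upper right; in the second panel both open circles lie at the lower left.

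Cdkn1c stood at 94.5, 105 and 109 CPM in WT, at 268, 271 and 318 CPM in Δ306 and at 117, 233, 240 and 252 CPM in Δ104. The 6 Δ93 libraries ran from 242 to 334 CPM (median 295). All libraries of these 3 deletion groups exceeded all WT libraries. Cdkn1c rose by 1.47 (SE 0.44) on the log2 scale in Δ306 against WT (adjusted p = 0.0490, 3 of 3 libraries) and by 1.49 (SE 0.40) in Δ93 against WT (adjusted p = 0.0171, 6 of 6), and the Δ104 difference of 1.03 (SE 0.42) did not pass (adjusted p = 0.255). Both increases kept a size of 1.28 to 1.52 with the libraries of doubt left out, but neither passed without the 7 low-Y libraries (adjusted p = 0.254 in Δ306 and 0.242 in Δ93) or without the 2 germ-cell-poor libraries (0.124 and 0.0737). The Δ306 call also ended with any 1 of the 6 libraries left out (adjusted p from 0.0982 to 0.160), and the Δ93 call without WT replicate 1, 2 or 3 (0.0607, 0.0784 and 0.0614).

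In Δ225, Cdkn1c split by library. Replicates 1 and 3 had 412 and 281 CPM, and replicates 2, 4, 5 and 6 had 97.7, 116, 98.6 and 98.7 CPM, of which the 116 CPM of replicate 4 alone lay outside the WT range of 94.5 to 109 CPM. Replicates 1 and 3 are the 2 libraries set apart above by their mitochondrial share and their muscle genes. With them, the difference from WT was 0.84 (SE 0.39, adjusted p = 0.299) and without them -0.01 (adjusted p = 0.988). Without them Cdkn1c was 1.50 lower in Δ225 than in Δ93 (adjusted p = 8.75e-05), against 0.65 lower with them (adjusted p = 0.135), and it was 1.04 lower without replicate 1 alone (adjusted p = 0.00575). The part of tissue make-up or RNA quality in these 2 libraries was not tested. The counts of this gene also differed between tables: the table of all deletions gave Cdkn1c 0.424 to 0.583 of the counts that the authors' first table gave the same WT and Δ306 libraries, where the other 9 members kept 0.827 to 1.08. The range was 0.424 to 0.539 in WT and 0.567 to 0.583 in Δ306. In the first table Cdkn1c ran from 199 to 285 CPM in WT and from 551 to 631 CPM in Δ306. Its difference there was 1.33 (SE 0.16, adjusted p = 0.00336 by edgeR), against 1.47 in the table of all deletions. An annotated antisense gene, Gm44732, overlaps 892 bases of Cdkn1c and had 0 or 1 count in each of the WT and Δ306 libraries of the table of all deletions.

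Cdkn1a was the scarcest of the 3, at 3.60 CPM per kilobase of exon in WT. It stood at 11.2, 11.6 and 15.6 CPM in WT, at 23.3, 25.3 and 44.1 CPM in Δ306 and at 7.15, 12.02, 21.8 and 39.8 CPM in Δ104. It ran from 24.6 to 46.3 CPM in Δ93 (median 40.5) and from 6.94 to 42.2 CPM in Δ225 (median 11.6), where replicate 3 alone exceeded 13.2 CPM. Δ93 and Δ306 lay wholly above WT, and Δ104 and Δ225 overlapped it. Cdkn1a rose by 1.57 (SE 0.52) in Δ93 against WT on the log2 scale (adjusted p = 0.0491, 6 of 6 libraries), and the 1.27 (SE 0.57) of Δ306 did not pass (adjusted p = 0.191). It was 1.29 (SE 0.40) lower in Δ225 than in Δ93 (adjusted p = 0.0285). In the authors' first count table, which holds WT and Δ306 alone, Δ306 against WT was called, at 1.33 (SE 0.28, adjusted p = 0.0198; 18.8% of its genes were called).

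The Δ93 call for Cdkn1a ended without the 7 low-Y libraries (1.57, adjusted p = 0.216), without the 2 germ-cell-poor ones (1.47, adjusted p = 0.134), without any 1 WT library (adjusted p from 0.0995 to 0.165) and without Δ93 replicate 2, 3, 4 or 5 (0.0638 to 0.0831), and likewise with no composition factor (adjusted p = 0.0507) and with no filter on low counts (adjusted p = 0.0579). The lower level in Δ225 than in Δ93 was not called without the 7 low-Y libraries (1.24 lower, adjusted p = 0.309) or without Δ225 replicate 1, 2 or 6 or Δ93 replicate 2 (0.0503 to 0.0587). Against Δ306, Cdkn1a in Δ225 was 0.99 lower with all libraries (adjusted p = 0.178). It was 1.60 lower without Δ225 replicate 3 (adjusted p = 0.00919) and 1.51 lower without Δ225 replicates 1 and 3 (adjusted p = 0.0171), but 0.63 lower without Δ306 replicate 3 (adjusted p = 0.568) and 0.55 lower without the 7 low-Y libraries (adjusted p = 0.669).

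**Figure D3:**
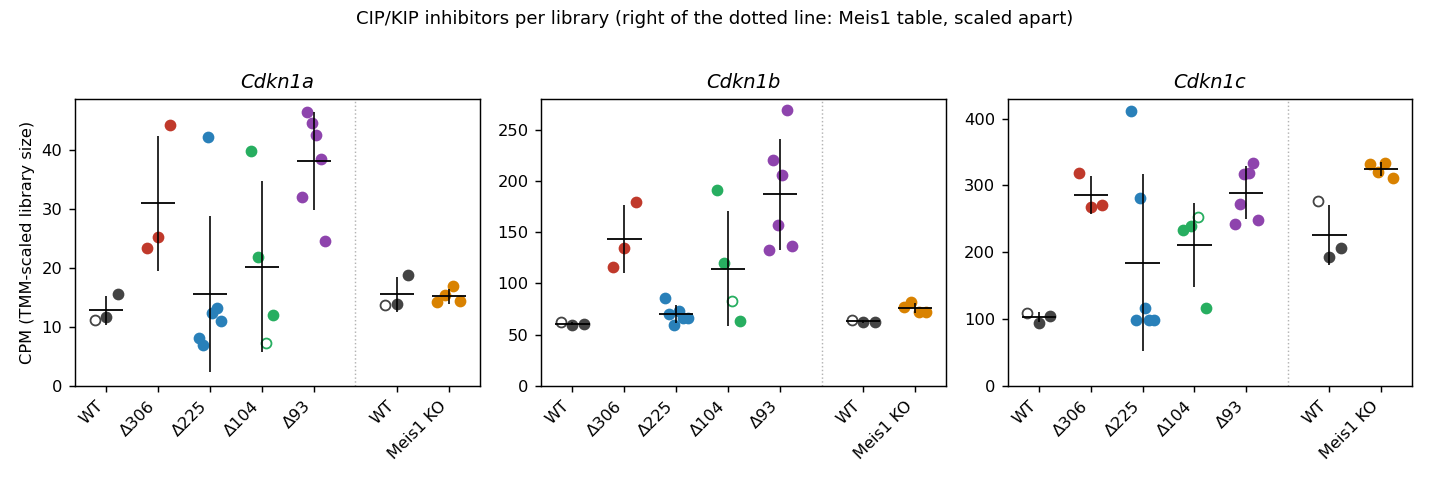
CPM (vertical axes, TMM-scaled library size) of Cdkn1a, Cdkn1b and Cdkn1c, 1 point per library, with the group mean (bar) and SD (line); right of the dotted line is the Meis1 table, scaled apart, and open circles are WT replicate 1 and Δ104 replicate 3, poor in germ cells. Δ306 and Δ93 lie above WT for all 3 genes, and 2 Δ225 libraries, at 281 and 412 CPM, stand off from the other 4 for Cdkn1c.

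The INK4 locus genes were scarce and none of the 11 comparisons called them. Cdkn2a (chr4:89274471-89294653, minus strand) encodes the CDK4/6 inhibitor p16 and, from another reading frame, the MDM2 inhibitor p19ARF, which gene-level counts cannot separate. Cdkn2b (chr4:89306299-89311039, minus strand) encodes p15, a CDK4/6 inhibitor. Per kilobase of merged exon, WT had 4.40 CPM of Cdkn2a and 0.38 CPM of Cdkn2b, against 50.5 CPM of Cdkn1c and 13.3 CPM of Cdkn1b.

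Cdkn2a stood at 0.43, 6.90 and 8.15 CPM in WT, at 3.74, 4.52 and 5.00 CPM in Δ306 and at 0.81, 2.78, 3.78 and 7.30 CPM in Δ104. It ran from 1.98 to 10.4 CPM in Δ225 (median 6.22) and from 3.44 to 22.6 CPM in Δ93 (median 5.78). All groups overlapped WT, and the smallest adjusted p of the 11 comparisons was 0.394. Cdkn2b had 0, 0.74 and 0.84 CPM in WT, 0.61, 0.95 and 1.22 CPM in Δ306, 0.29, 0.74, 0.94 and 1.36 CPM in Δ104, 0.53 to 1.49 CPM in Δ225 (median 1.13) and 0.57 to 1.095 CPM in Δ93 (median 0.87). These levels rest on 0 to 61 counts a library, and its smallest adjusted p was 0.461. The WT library without a Cdkn2b count was replicate 1, where 3 counts, the limit that a count of 0 allows, would be 0.0754 CPM (counting error only).

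Both genes were lowest in the 2 libraries that were also poor in germ-cell markers. WT replicate 1, with a germ-cell sum of 55.2 CPM, had 17 counts of Cdkn2a and none of Cdkn2b. Δ104 replicate 3, with a germ-cell sum of 213 CPM, had 14 and 5. The 3 genes whose log2 CPM was most like that of Cdkn2b over the 22 libraries were Dazl, Ddx4 and Mageb16 (Pearson r of 0.956, 0.944 and 0.941); Dazl and Ddx4 are RNA-binding proteins of germ cells, and both are on the germ-cell list. Cdkn2a and Cdkn2b had an r of 0.747 with each other over the same libraries. Germ-cell markers (8 genes) ran from 55.2 to 869 CPM in WT, 443 to 927 CPM in Δ306, 496 to 1309 CPM in Δ225, 213 to 1035 CPM in Δ104 and 639 to 1174 CPM in Δ93, none of the 8 was called against WT in any deletion and none was at 0 in a library. The part of germ-cell number in the INK4 values was not tested.

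Rb1 (chr14:73183673-73325822, minus strand), which encodes the retinoblastoma protein, stood at 14.1, 20.8 and 26.4 CPM in WT, at 27.7, 27.8 and 32.3 CPM in Δ306 and at 21.5, 31.9, 34.7 and 41.4 CPM in Δ104. It ran from 30.7 to 72.0 CPM in Δ225 (median 39.0) and from 22.4 to 43.4 CPM in Δ93 (median 34.9). Every Δ225 and every Δ306 library exceeded every WT library. The difference of Δ225 from WT, 1.12 (SE 0.29) on the log2 scale, had an unadjusted p of 0.000794 and an adjusted p of 0.0990 with edgeR, and was called by DESeq2 (1.16, adjusted p = 0.00782) and with the replicate number as a block (1.24, adjusted p = 0.0282). Those of Δ93 (0.72, SE 0.28, adjusted p = 0.0896), Δ104 (0.67, SE 0.30, adjusted p = 0.293) and Δ306 (0.52, SE 0.31, adjusted p = 0.357) were not called either. That of Δ93 was called with the replicate number as a block (0.86, adjusted p = 0.0386) and without Δ225 replicates 1 and 3 (0.72, adjusted p = 0.0459). The lowest of the 22 libraries was WT replicate 1, at 14.1 CPM, and without it and Δ104 replicate 3 the Δ225 difference was 0.92 (adjusted p = 0.320). The highest was Δ225 replicate 1, at 72.0 CPM, and without it and replicate 3 the difference was 0.90 (adjusted p = 0.138).

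Rb1 lies on chromosome 14, as Fgf9 does, 15.07 Mb away. Rcbtb2 and Lpar6 are annotated on the opposite strand and overlap it by 24171 and 5400 bases. Neither passed the test in Δ225 against WT (Rcbtb2 -0.20, adjusted p = 0.414; Lpar6 0.56, adjusted p = 0.210). The library kit marks strand, but the strand setting of the count is not given in the sources used here, so reads of the overlaps cannot be assigned with certainty.

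**Figure D4:**
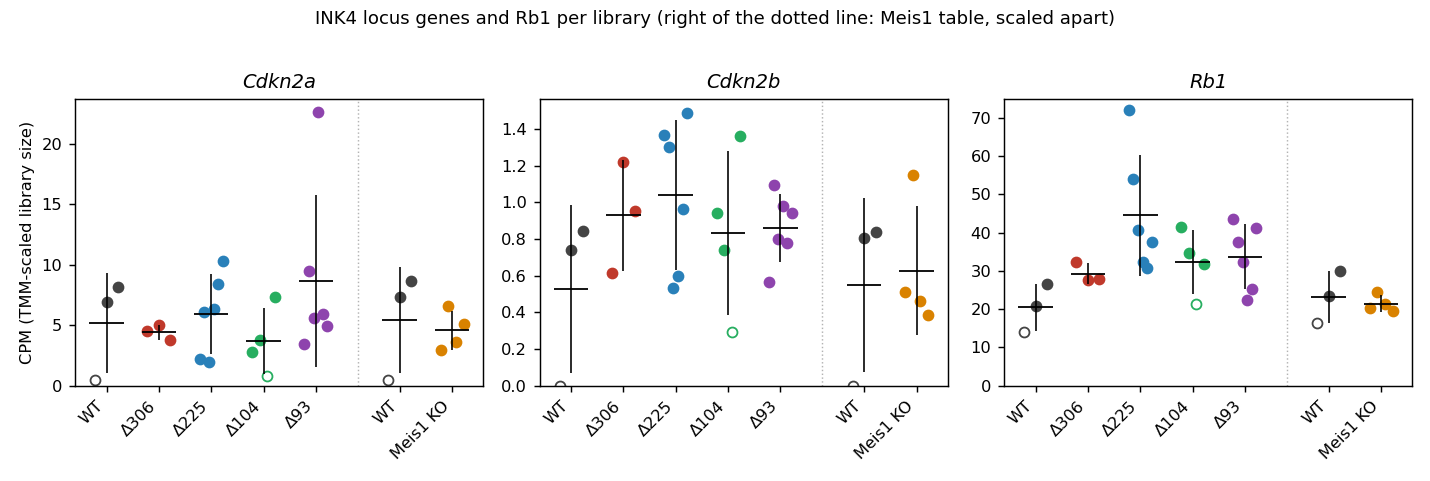
CPM of Cdkn2a, Cdkn2b and Rb1, 1 point per library, with group mean (bar) and SD (line); the Meis1 table is right of the dotted line, and open circles are the 2 libraries poor in germ cells. The open circles are the lowest of their groups for all 3 genes, and the 6 Δ225 libraries lie at 30.7 to 72.0 CPM for Rb1, above the WT libraries at 14.1 to 26.4 CPM.

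D-type cyclins activate CDK4 and CDK6. Ccnd2 was the most abundant of them in WT (26.8 CPM per kilobase, SD 2.05), then Ccnd3 (21.4, SD 0.94) and Ccnd1 (10.8, SD 1.07). The cyclin E gene Ccne1, whose product activates CDK2 late in G1, had 9.80 CPM per kilobase (SD 2.66) in WT, a difference from Ccnd1 smaller than that SD. Ccnd1 lies at chr7:144929931-144939925, Ccnd2 at chr6:127125162-127152193 and Ccne1 at chr7:38097984-38107534, all on the minus strand, and Ccnd3 at chr17:47505051-47599691 on the plus strand.

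Ccnd1 was lower in Δ225 than in Δ306 or Δ93. It stood at 46.1, 50.5 and 56.2 CPM in WT, 61.7, 66.0 and 103.7 CPM in Δ306 and 29.8, 45.4, 57.0 and 76.1 CPM in Δ104. It ran from 19.2 to 46.5 CPM in Δ225 (median 29.1) and from 43.3 to 96.4 CPM in Δ93 (median 73.2). Δ306 lay above WT and above Δ225 without overlap; Δ225 overlapped WT at a single library, replicate 3. Ccnd1 was 1.31 (SE 0.29) lower on the log2 scale in Δ225 than in Δ306 (adjusted p = 0.00638) and 1.196 (SE 0.25) lower than in Δ93 (adjusted p = 0.00197). Against WT, Δ225 was 0.71 (SE 0.29) lower (adjusted p = 0.264), while Δ306 was 0.60 (SE 0.35) higher (adjusted p = 0.332) and Δ93 0.48 (SE 0.31) higher (adjusted p = 0.320), none of them called. Without the 7 low-Y libraries the differences were as large but not called (1.49 lower, adjusted p = 0.0551, and 1.305 lower, adjusted p = 0.0640), and that from Δ306 had an adjusted p of 0.0524 (1.02 lower) without Δ306 replicate 1.

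Ccne1 was called in these 2 comparisons too. It stood at 18.1, 28.7 and 31.5 CPM in WT, 42.7, 44.4 and 52.7 CPM in Δ306 and 21.1, 28.6, 33.03 and 38.1 CPM in Δ104, and it ran from 11.9 to 36.1 CPM in Δ225 (median 21.3) and from 36.5 to 43.7 CPM in Δ93 (median 41.1). Δ306 and Δ93 each lay above WT, and above Δ225, without overlap. Ccne1 was 1.11 (SE 0.24) lower in Δ225 than in Δ306 on the log2 scale (adjusted p = 0.00553) and 0.92 (SE 0.21) lower than in Δ93 (adjusted p = 0.00324). Both calls held with any 1 library left out (adjusted p up to 0.0307 and 0.00819), and neither did without the 7 low-Y libraries (1.15 lower, adjusted p = 0.107, and 0.93 lower, adjusted p = 0.164). Against WT, Ccne1 was 0.84 (SE 0.29) higher in Δ306 (adjusted p = 0.0866) and 0.65 (SE 0.26) higher in Δ93 (adjusted p = 0.0969), and DESeq2 called both (adjusted p = 0.0399 and 0.0494). Beside both cyclin genes, 10 of the 12 pre-granulosa markers were called lower in Δ225 than in Δ306 and 11 lower than in Δ93, while Nr2f2 was called higher in both. Of the 6 fetal Leydig markers, 5 and 6 were called higher, and of the 8 meiotic germ-cell markers 2 and 5 lower. Of the 14 Sertoli markers, 2 were called higher and 1 lower than in Δ306, and 5 higher and 2 lower than in Δ93, and 1 and 2 of the 5 male germ-cell markers tested were called higher. The part of these markers in the cyclin values was not tested.

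Ccnd2 and Ccnd3 were called in none of the 11 comparisons. Ccnd2 stood at 230, 259 and 267 CPM in WT and at 230, 243 and 318 CPM in Δ306, and ran from 234 to 308 CPM in Δ93 (median 301) and from 176 to 340 CPM in Δ225 (median 229). Its group means lay between 233 CPM (SD 58.2, Δ225) and 335 CPM (SD 122, Δ104), where 4 libraries spread from 175 to 455 CPM. All groups overlapped WT. Ccnd2 in Δ225 was 0.52 lower than in Δ104 with all libraries (adjusted p = 0.325) and 0.73 lower without Δ104 replicate 4, the library at 175 CPM (adjusted p = 0.0242). It was 0.34 lower without Δ104 replicate 3 (adjusted p = 0.600), 0.31 lower without the germ-cell-poor libraries (adjusted p = 0.635) and 0.33 lower without the low-Y ones (adjusted p = 0.796). Ccnd3 stood at 181, 187 and 197 CPM in WT and at 116, 128, 144 and 161 CPM in Δ104, ran from 107 to 162 CPM in Δ93 (median 142), and was 120, 128 and 198 CPM in Δ306. Δ104 and Δ93 thus lay below WT for Ccnd3, by 0.45 (SE 0.33, adjusted p = 0.496) and 0.44 (SE 0.30, adjusted p = 0.372) on the log2 scale. In Δ225, Ccnd3 ran from 36.8 to 201 CPM (median 151). The 36.8 CPM was replicate 1, which also had the highest Cdkn1c and Rb1 of all 22 libraries. LTO1 overlaps 1771 bases of Ccnd1 and Bysl 361 bases of Ccnd3 on the opposite strand.

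**Figure D5:**
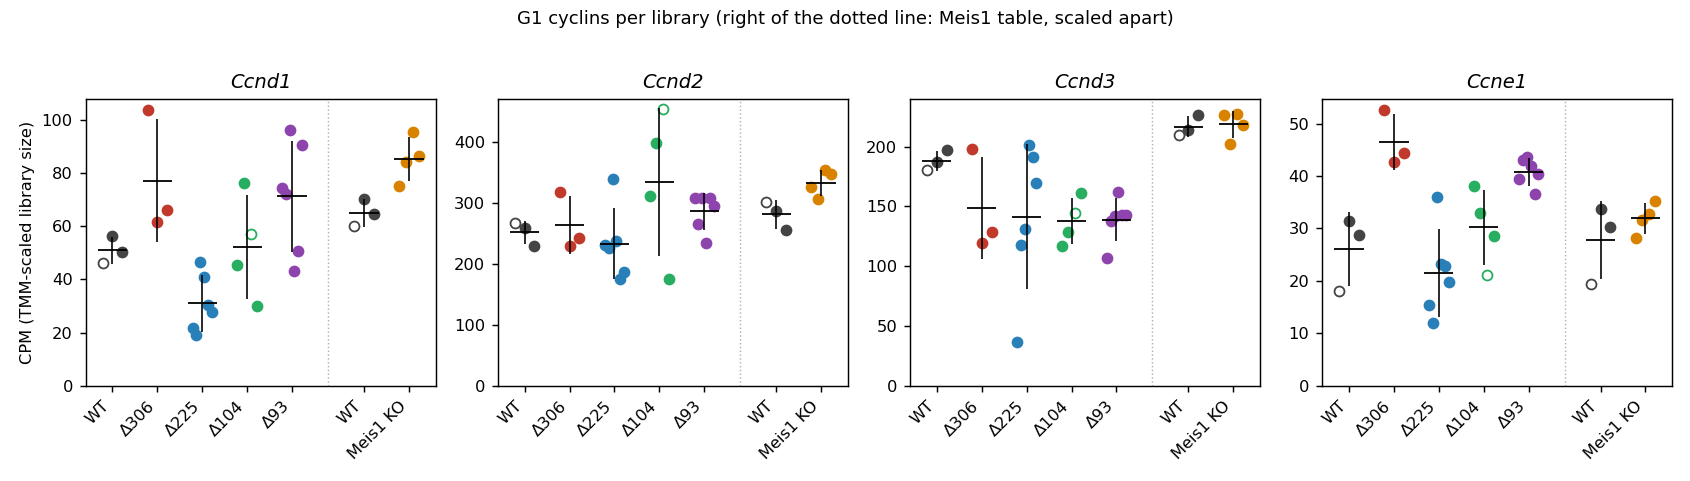
CPM of Ccnd1, Ccnd2, Ccnd3 and Ccne1, 1 point per library, with group mean (bar) and SD (line); the Meis1 table is right of the dotted line, and open circles are the 2 libraries poor in germ cells. Δ225 libraries, at 11.9 to 36.1 CPM for Ccne1, lie below all Δ306 and Δ93 libraries, and 1 Δ225 library is far below the rest for Ccnd3.

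Ordered by group mean, Cdkn1a, Cdkn1b and Cdkn1c shared 1 order: Δ93, Δ306, Δ104, Δ225, WT from high to low. No 2 neighbours in that order differed by the test for any of the 3 genes. The Δ225 means include replicate 3, high for Cdkn1a, and replicates 1 and 3, high for Cdkn1c. Medians of Δ225 and WT were 11.60 and 11.56 CPM for Cdkn1a and 107.6 and 104.9 CPM for Cdkn1c. Ccnd1 and Ccne1 shared another order by mean, Δ306, Δ93, Δ104, WT, Δ225. The highest group mean was 3.08 times the lowest for Cdkn1b and 1.37 times for Ccnd3, the extremes of the 10 genes. Across the 22 libraries the log2 CPM of Ccne1 had a Pearson r of 0.862 with Cdkn1a and 0.813 with Ccnd1, and Cdkn1a one of 0.761 with Cdkn1b, while Rb1 and Ccnd3 had one of -0.666. These values describe libraries that share groups and differ in depth and cell make-up.

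Over all 10 members, the groups did not overlap for 6 in Δ306 against WT (37.6% of all genes), 1 in Δ225 (10.1%), 3 in Δ104 (18.1%) and 5 in Δ93 (24.7%). Between deletions they did not overlap for 3 in Δ225 against Δ306 (20.2%), 2 in Δ225 against Δ93 (11.0%) and 2 in Δ104 against Δ306 (11.2%), and for 0 members in Δ225 against Δ104 (1.67%), Δ93 against Δ306 (6.38%) and Δ93 against Δ104 (1.89%). The median log2 difference of the 10 from WT was 0.71 in Δ306, 0.20 in Δ225, 0.54 in Δ104 and 0.71 in Δ93, where that of all genes was 0.08, 0.04, 0.06 and 0.06.

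Of 27 further genes of G1/S control, 1 was called in Δ306 against WT, E2f5, a repressor-type E2F factor (0.59 higher, adjusted p = 0.0146). In Δ93 against WT, 3 were higher and 2 lower: Cdk6, a partner of D-type cyclins (0.97, adjusted p = 0.00748), Tfdp2, a partner of E2F factors (0.61, adjusted p = 0.00704), and E2f5 (0.43, adjusted p = 0.0199) against E2f6 (-0.44, adjusted p = 0.0183) and Cks1b, a CDK-binding subunit (-0.50, adjusted p = 0.0153). Their median log2 difference from WT was -0.07 in Δ306 and -0.08 in Δ93. In Δ225 against Δ93, 5 were higher and 3 lower. The 5 with the smallest adjusted p were Cdkn2d, another INK4 inhibitor of CDK4 and CDK6 (-1.12, adjusted p = 0.00213), Rbl1, an Rb relative (0.56, adjusted p = 0.00492), E2f8 (0.78, adjusted p = 0.0129), E2f2 (-0.98, adjusted p = 0.0146) and E2f6 (0.34, adjusted p = 0.0215). In Δ225 against Δ306, Fbxw7, whose product marks cyclin E for breakdown, was 0.77 higher (adjusted p = 0.0232) and E2f5 0.46 lower (adjusted p = 0.0118). In the other 7 comparisons edgeR called none of the 27, with 0 to 6 of them at an unadjusted p under 0.05.

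Of 20 genes of S phase and mitosis, none was called in Δ306 against WT (4 at an unadjusted p under 0.05). In Δ93 against WT, Aurkb and Cdk1, kinases of mitosis, were lower by 0.91 (adjusted p = 0.0120) and 0.62 (adjusted p = 0.0226) on the log2 scale, and the median of the 20 was -0.29. Mki67 and Cenpe were higher in Δ225 than in Δ93 (0.86, adjusted p = 0.0372, and 0.89, adjusted p = 0.0144) and Top2a higher in Δ225 than in Δ306 (0.62, adjusted p = 0.0394). Beside these genes, meiotic germ-cell markers (8 genes) summed to 14.8 to 113 CPM in WT, 195 to 432 CPM in Δ306 and 342 to 2023 CPM in Δ93, with 2 and 7 of 8 called higher, and Stra8 at 0 in 1 WT library or more. Their part in the values was not tested.

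In Meis1 KO, 4 members lay above WT in every library and none was called. The WT libraries are the same samples as those set against the deletions, with the counts of the Meis1 table. Cdkn1b stood at 62.0, 62.1 and 64.3 CPM in WT and at 72.1, 72.2, 76.9 and 82.3 CPM in Meis1 KO, a difference of 0.27 (SE 0.07, adjusted p = 0.0890) on the log2 scale. Cdkn1c stood at 193, 207 and 277 CPM against 312, 320, 332 and 334 CPM (0.52, SE 0.12, adjusted p = 0.0734). Ccnd1 stood at 59.99, 64.7 and 70.4 CPM against 75.2, 84.3, 86.6 and 95.5 CPM (0.39, SE 0.10, adjusted p = 0.0800). The groups of these 3 genes were separate but close, as were those of Ccnd2, at 256, 287 and 302 CPM against 307, 326, 347 and 354 CPM (0.24, SE 0.09, adjusted p = 0.172). The groups did not overlap for 19.7% of all genes in that table. DESeq2 called Cdkn1b (adjusted p = 0.0159), Cdkn1c (0.00457) and Ccnd1 (0.00948), and edgeR without WT replicate 1, the library poor in germ cells, called all 4 (adjusted p from 0.00269 for Cdkn1c to 0.0482 for Ccnd1, with Cdkn1c then at 0.70). The other 6 members overlapped; Cdkn1a, for example, was 13.7, 13.9 and 18.8 CPM in WT and 14.2, 14.3, 15.3 and 16.9 CPM in Meis1 KO. Foxl2 was called higher (2.90, adjusted p = 0.000753), and it was the 1 pre-granulosa marker of 12 that was, while their sum was 491 to 546 CPM against 424 to 552 CPM in WT. The 14 Sertoli markers summed to 2451 to 2939 CPM in Meis1 KO against 3132 to 3571 CPM in WT, with 2 called lower (Sox10 and Mro) and 7 below WT in every library. Red blood cell markers summed to 2556 to 3616 CPM against 3523 to 4856 CPM, with 2 of 5 called lower (Hba-a1 and Alas2), and muscle genes to 5.23 to 11.4 CPM against 28.9 to 123 CPM, with 3 of 5 called lower. The part of these lists in the member values, like that of the lower Y-linked counts, was not tested.

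Each member's closest genes, by Pearson r of log2 CPM over the 22 libraries among 11718 genes with a mean of at least 5 CPM, came to r of 0.972 for Cdkn1b with each of Magi2, Adamdec1 and Akr1c14. For Cdkn1a they were Fhod3 (0.931), Tspan12 and Klhl13, and for Cdkn1c Lrch2 (0.916) and Zfp711. For Cdkn2a they were Rbmxl2 (0.929), Shq1 and Siah1b, and for Rb1 Hsf2, Eif5a2 (both 0.923) and Prorp. Among the cyclins they were Susd1 (0.883), Spsb4 and Hunk for Ccnd1, Ldah (0.880), St8sia1 and Srgap1 for Ccnd2, Fam110a (0.978), Vasp and Rhod for Ccnd3, and Rhox9 (0.906), Tspan13 and Rhox6 for Ccne1. The libraries share groups, depth and cell make-up, so these likenesses are descriptions only.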

How the data were processed

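The deposited counts are whole reads per gene that the authors made from poly(A) libraries of a directional kit, per the labels' protocols. Per the submitters' processing notes the reads were aligned to mm10 with STAR (2.7.10a for WT and Δ306) and featureCounts of Subread was named for WT and Δ306 only; the annotation and strand setting are not given in the sources used here. From the authors' deposited comparison table, which holds log2 fold changes, only the pairing of gene identifiers with symbols was used. Genes kept by edgeR's filterByExpr were fitted with edgeR 4.0.16 (TMM scaling, quasi-likelihood test, Benjamini-Hochberg adjustment over all genes) in R 4.3.3, with the 22 libraries of WT and the 4 deletions in 1 fit (17 residual degrees of freedom) and the Meis1 table apart (5). The fit was tested on simulated counts, drawn independently for each gene and library. They held no differences of cell make-up or Y-linked counts, so that test cannot speak to the libraries set apart above. CPM uses the TMM-scaled library size, log2 CPM a prior count of 2, and exon length merges all exons of a gene. Each SE was worked back from the test, as the size of the log2 difference over the square root of edgeR's F statistic. Of 51 replicate pairs none held identical values. DESeq2 1.42.0, other scalings, no filter, a replicate block, the 2 groups alone, the authors' first table and left-out libraries were alternatives. Correlations of same-numbered replicates ran from -0.307 to 0.481, and in 0 of 11 comparisons was every pair above 0.1, the limit set for pairing, so numbers were not taken to pair samples; in 3 comparisons every pair was above 0. Named were all 10 members, up to 5 called genes per other list and comparison by smallest adjusted p, and 3 most-alike genes per member, of which 1 is not reported here. The members and lists were chosen with earlier results of these data known.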

Additional observations from a re-analysis of the deposited data

Results flagged for a closer look

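Among 40 groups of 4 or more libraries, 4 held a library whose gap to its nearest neighbour was large for the group's range by Dixon's 95% critical value, which chance exceeds in about 1 group in 20. Cdkn1a stood at 42.2 CPM in Δ225 replicate 3, the library with high muscle genes, and its nearest neighbour was at 13.2 CPM. Cdkn1c stood at 117 CPM in Δ104 replicate 4, below the other 3 libraries, the nearest at 233 CPM. Cdkn2a stood at 22.6 CPM in Δ93 replicate 4, with the next library at 9.48 CPM. Cdkn2b stood at 1.15 CPM in Meis1 KO replicate 2, with the next at 0.51 CPM.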

How the results depend on the processing

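Fold changes under alternatives were followed only for pairs of a gene and a comparison with an unadjusted p under 0.05 in the main edgeR fit. Cdkn2a, Cdkn2b and Ccnd3 had no such pair. Of 645 fold changes of these pairs under an alternative, 562 kept direction and call, 52 lost a call, 30 gained one and 1 reversed. Only the 12 called pairs could lose a call, so 52 of 645 understates how often calls were lost. The stricter limit of 0.01 leaves the fold change as it was and could not reverse it. The reversed one was Cdkn1c in Δ225 against WT, 0.84 with all libraries and -0.011 without the 2 Δ225 libraries of doubtful make-up. The share of all genes called moved with the setting too: in Δ306 against WT it was 6.43% in the main fit and 18.8% in the first table. Shares under the other settings are not given here, so the counts below, also with single libraries left out, are not results about the members alone. The counts of members called that moved by over 1.5 times were these. In Δ306 against WT (2), they were 0 at an adjusted p under 0.01, 1 with RLE scaling, 1 with no filter, 4 with the 2 groups alone, 4 in the first table, 0 without the 7 libraries of low Y-linked counts and 0 without the 2 poor in germ cells. In Δ93 against WT (3), they were 1 at 0.01, 5 with the 2 groups alone, 0 without the low-Y libraries, 1 without the germ-cell-poor ones and 5 without the doubtful ones. In Δ225 against Δ306 (3) they were 0 without the low-Y libraries and 5 without the doubtful ones, and in Δ225 against Δ93 (4), 1 without the low-Y libraries. Leaving out the doubtful libraries gave 1, Cdkn1c, in Δ104 against WT (0) and in Δ225 against Δ104 (0). DESeq2 gave 1 in Δ225 against WT (0) and 3 in Meis1 KO (0). Smaller moves were, in Δ93 against WT, 2 with no composition factor, 2 with no filter (each without Cdkn1a) and 4 with DESeq2 (with Ccne1), in Δ306 against WT 3 with DESeq2 and 3 without the doubtful libraries, in Δ225 against Δ306 2 at 0.01 (without Cdkn1b), and in Δ225 against Δ93 3 at 0.01 (without Cdkn1a) and 5 without the doubtful libraries. The cause of these changes was not tested, except that fewer libraries were fitted where some were left out. The removals of germ-cell-poor and doubtful libraries were chosen after seeing the data.

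With 1 library left out at a time, the counts ran from 0 to 1 in Δ306 against WT, 0 to 0 in Δ225, 0 to 1 in Δ104 and 1 to 3 in Δ93 against WT. They ran from 2 to 4 in Δ225 against Δ306, 0 to 2 against Δ104 and 3 to 4 against Δ93. They were 0 to 0 in Δ104 against Δ306 and in Δ93 against Δ306, 0 to 1 in Δ93 against Δ104, and 0 to 4 in Meis1 KO. With the replicate number as a block, the counts were 2 in Δ306, 1 in Δ225 (Rb1, 1.24, adjusted p = 0.0282) and 4 in Δ93 against WT (with Rb1, 0.86, adjusted p = 0.0386) and 5 in Δ225 against Δ93 (with Cdkn1c, -0.87, adjusted p = 0.0352). The numbers are shared without a stated pairing, and in 0 of 11 comparisons did every same-numbered pair correlate above 0.1. Depth limits Cdkn2b, which had at most 61 counts in a library.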
